A study of Mus musculus with 12 samples.

Results

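Gata4, Gata6, Sox17, Sox7, Foxa2, Pdgfra, Dab2, Lamb1, Sparc and Col4a1 mark the primitive endoderm of the early embryo or build the basement membrane that it lays down. These 10 genes were taken by symbol out of 54532 genes in the deposited count table. They were chosen for their role and not for a measured value, but with earlier results of these data known. Their poly(A) RNA was followed through 6 groups of mouse embryonic stem cells. All 10 symbols were found, and 10 of 10 passed the filter on low counts, Foxa2 with no more than 12 counts in any library.

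The cells were E14 mouse embryonic stem cells, an established line, grown on gelatin in serum-containing medium with LIF and the 2i pair of kinase inhibitors (PD0325901 and CHIR99021). Wild-type cells, cells without p53 (p53 KO) and cells without Dux (Dux KO) were each given 1 uM doxorubicin for 6 h and then drug-free medium, or DMSO for 6 h as vehicle. The length of the drug-free time is not given in the sources used here. Each of the 6 groups has 2 libraries, called biological duplicates in the design text. The wild-type libraries share 1 column name and are written a and b here, while those of each knockout come from lines numbered 1 and 2, so the spread within a knockout group also holds the difference between its lines. Whether a numbered line is a single clone is not stated. The deposited counts of Dux KO vehicle library 2 repeat those of Dux KO drug library 1 in 54532 of 54532 genes and were left out of the tests. Its levels are given here from counts recovered from its own FPKM values, and the other Dux KO vehicle library was assumed in the tests to vary like the other groups.

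Total counts ran from 23270358 to 56795858 over the 11 libraries tested. Dux transcript (Duxf3) lay at 21.6 and 22.8 CPM (counts scaled to a common, TMM-corrected library size) in the wild-type drug libraries and at 0 in each Dux KO library. Trp53 transcript was still present in the p53 KO libraries, between 39.8 and 95.5 CPM against 133 to 193 CPM in wild type, so its level does not check that label. Cdkn1a, a p53 target, was at 188 and 186 CPM in the wild-type drug libraries against 47.0 and 26.2 in the p53 KO drug libraries. In the wild-type vehicle libraries, 9 epiblast and naive pluripotency genes ran from Dppa3, at 0.544 and 0.972 CPM, to Nanog, at 1321 and 1273 CPM. Of 14 fibroblast and feeder markers, Dcn and Lum were at 0 in each vehicle library of the 3 genotypes, while Fn1 stood between 628 and 1860 CPM there, Vim between 97.7 and 235 CPM and Col5a1 between 8.72 and 20.8 CPM.

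In the blastocyst, cells of the inner cell mass become either epiblast, which holds the transcription factor Nanog, or primitive endoderm, which holds Gata6. FGF signal through the kinase MEK pushes cells towards primitive endoderm, and the 2i medium contains a MEK inhibitor. Primitive endoderm cells then switch on Pdgfra, Sox17, Gata4 and Sox7 in turn, sort to the surface and deposit laminin, collagen IV and Sparc as a basement membrane. Below, called means an adjusted p under 0.05 by edgeR's quasi-likelihood test (Benjamini-Hochberg adjustment over 28643 genes), log2 values are fold changes on the scale of the fitted CPM, and SE is their standard error. The p-values set each difference against a spread between libraries that was estimated from all groups together, the differences between knockout lines included.

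Under doxorubicin Pdgfra, Sox17 and Gata6 rose 10.1-fold, 6.65-fold and 4.06-fold in wild-type cells, and the matrix genes Lamb1 and Sparc rose 1.71-fold and 1.52-fold. Gata6, Pdgfra and Lamb1 rose in each of the 3 genotypes. Sox17 was called in wild type and in neither knockout. Gata4, Sox7, Foxa2 and Col4a1 passed the test in no genotype. In wild type 5 of the 10 genes rose and the other 5 were not called, where 52.4% of all tested genes were called in either direction and 29% rose. The median log2 change was 0.69 over the 10 genes and 0.13 over all genes tested.

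**Figure D1:**
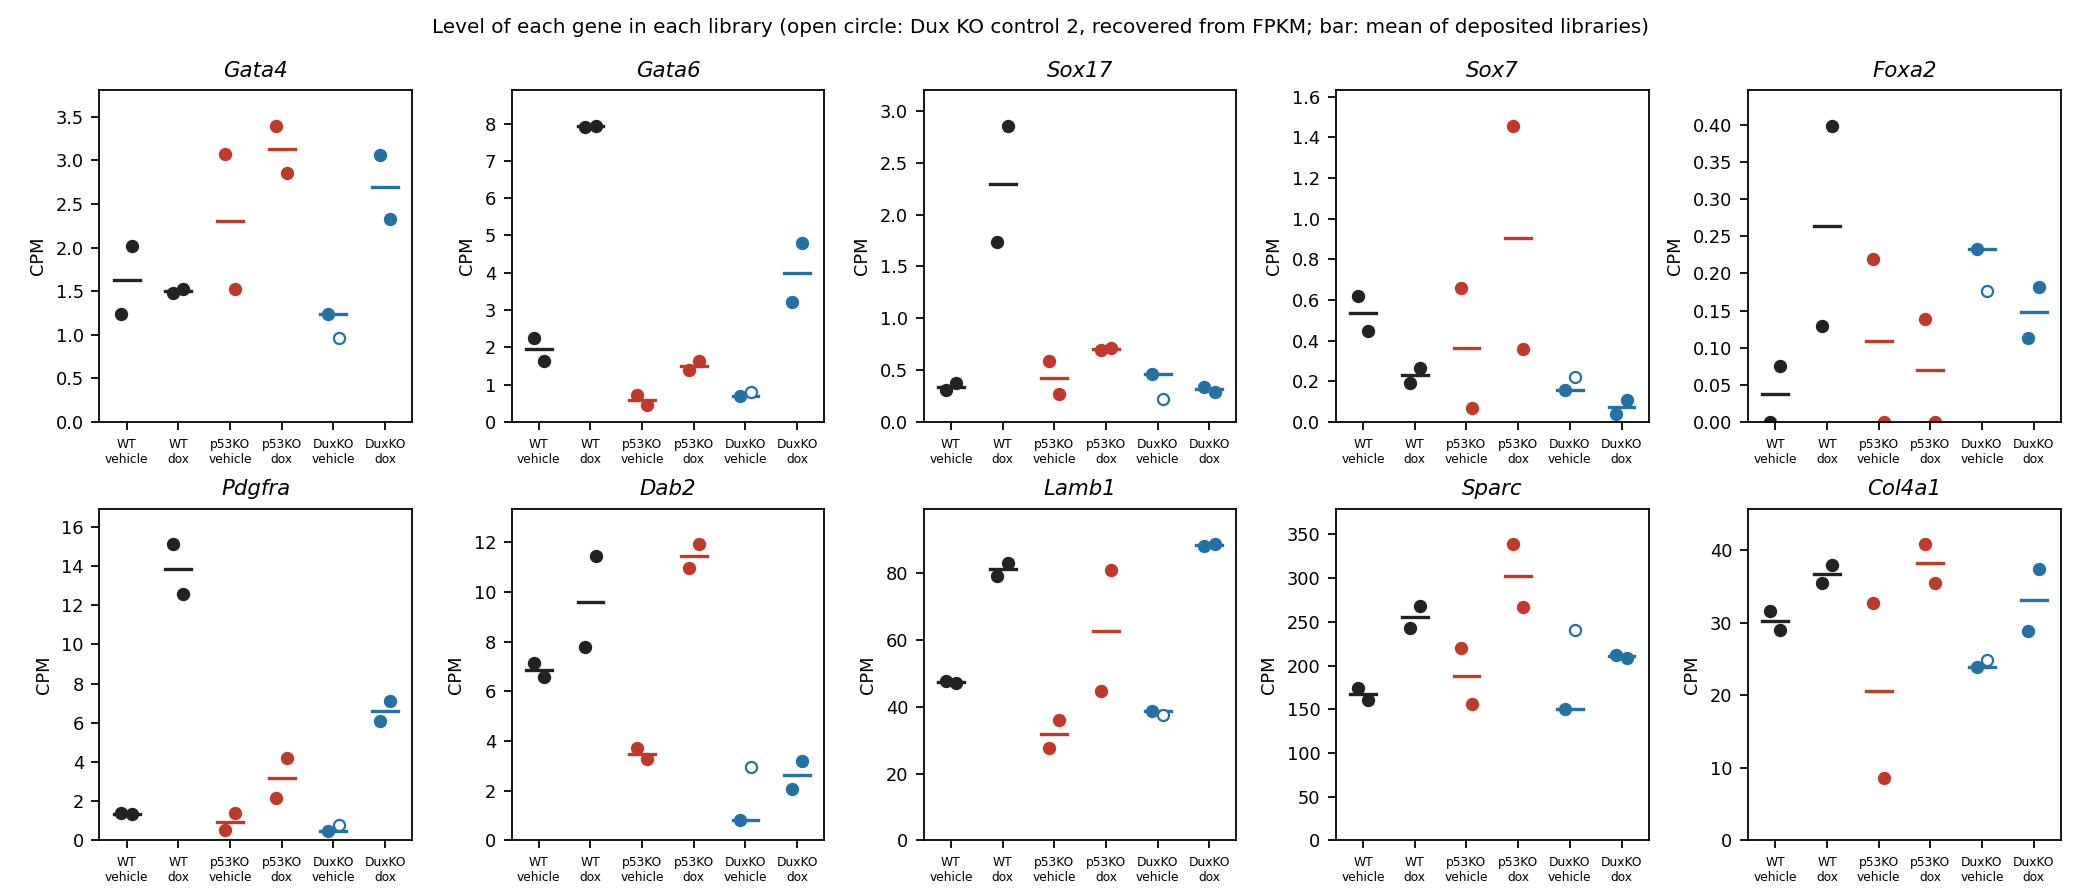
Level of each of the 10 genes, in CPM on a linear axis from 0, in each library of the 6 groups, with bars at group means of the deposited libraries. Pdgfra stood at 15.1 and 12.6 CPM in the wild-type drug libraries and at or under 1.40 CPM in every vehicle library.

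Gata6, the GATA factor that starts the primitive endoderm programme and opposes Nanog, stood at 2.25 and 1.65 CPM in the wild-type vehicle libraries and at 7.91 and 7.94 CPM in the drug libraries. Without p53 it lay at 0.731 and 0.466 CPM under vehicle and at 1.39 and 1.64 CPM under drug. In Dux KO cells it lay at 0.699 CPM, 0.793 CPM in the recovered library, and rose to 3.21 and 4.81 CPM. Drug libraries were above the vehicle libraries of their own genotype without overlap, yet the p53 KO drug libraries did not exceed the wild-type vehicle libraries. Level with each other were p53 KO drug library 2 and wild-type vehicle library b, at 1.641 and 1.645 CPM from 46 and 44 counts. The log2 change was 2.02 (SE 0.34, adjusted p = 0.00115) in wild type, 1.34 (SE 0.37, adjusted p = 0.0396) in p53 KO and 2.51 (SE 0.46, adjusted p = 0.00431) in Dux KO. Gata6 lies at GRCm38/mm10 chromosome 18, 11052064 to 11085635, plus strand, and its start overlaps the antisense RNA 1010001N08Rik, which reached at most 47 counts against 264 for Gata6. Strand of counting was not given in the sources used here, so reads of the overlap cannot be told apart.

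Sox17 (chromosome 1, 4490931 to 4497354, minus strand), an HMG-box factor that keeps primitive endoderm cells on their path, lay at 0.311 and 0.374 CPM in the wild-type vehicle libraries. Under drug the wild-type libraries reached 1.74 and 2.86 CPM, a log2 change of 2.73 (SE 0.52, adjusted p = 0.00211). No other library exceeded 0.714 CPM. The p53 KO values were 0.585 and 0.266 CPM under vehicle and 0.694 and 0.714 CPM under drug. The Dux KO values were 0.466 and, recovered, 0.220 CPM under vehicle and 0.340 and 0.291 CPM under drug, so the 2 treatments overlapped there.

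Gata4 (chromosome 14, 63198922 to 63271692, minus strand), the GATA factor that follows Gata6, did not separate by drug in wild-type cells, with 1.24 and 2.02 CPM under vehicle and 1.48 and 1.53 CPM under drug. Its p53 KO values were 3.07 and 1.53 CPM under vehicle, then 3.40 and 2.85 CPM under drug. Line 1 was the higher line in both. Dux KO cells went from 1.24 CPM, recovered 0.969 CPM, to 3.06 and 2.33 CPM. That Dux KO difference was a log2 of 1.11 (SE 0.51, adjusted p = 0.144). With the knockout line as a replicate block it was 1.30, which is the change of line 1 alone, since line 2 has no vehicle library in that fit. With the recovered library, unblocked, it was 1.27 (adjusted p = 0.0338), where that fit called 35.4% of all genes.

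Sox7 (chromosome 14, 63943673 to 63950732, plus strand), the partner of Sox17 in the SoxF family that marks later primitive endoderm, was low throughout, from 0.0377 CPM in Dux KO drug library 1 to 1.46 CPM in p53 KO drug library 1. The wild-type libraries lay at 0.622 and 0.449 CPM under vehicle and at 0.193 and 0.266 CPM under drug, lower with drug but not called. In p53 KO cells line 1 was higher than line 2 under both treatments, and the treatments overlapped. Lines 1 and 2 stood at 0.658 and 0.0666 CPM under vehicle and at 1.46 and 0.357 CPM under drug. Foxa2 (chromosome 2, 148042877 to 148046969, minus strand), a forkhead factor of visceral and definitive endoderm, had 0 and 2 counts in the wild-type vehicle libraries and 4 and 12 in the drug libraries. Its 3 libraries at 0 counts allow levels up to 0.117, 0.0999 and 0.107 CPM (3 counts, counting error only), so a difference in Foxa2 was not detectable at this depth.

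Pdgfra (chromosome 5, 75152292 to 75198215, plus strand), the receptor tyrosine kinase for PDGF and an early surface marker of primitive endoderm, gave the widest separation of the 10 genes. It stood at 1.40 and 1.35 CPM under vehicle and at 15.1 and 12.6 CPM under drug in wild type. In Dux KO cells it went from 0.466 CPM, recovered 0.771 CPM, to 6.11 and 7.10 CPM. The p53 KO values were 0.512 and 1.40 CPM under vehicle and 2.15 and 4.21 CPM under drug, line 2 being higher in both. Drug libraries lay above vehicle libraries in all 3 genotypes. The log2 change was 3.33 (SE 0.47, adjusted p = 0.000444) in wild type, 1.72 (SE 0.47, adjusted p = 0.0365) in p53 KO and 3.82 (SE 0.66, adjusted p = 0.00326) in Dux KO.

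Dab2 (chromosome 15, 6299788 to 6440712, plus strand), an endocytic adaptor that primitive endoderm needs for its surface position, behaved otherwise. It lay at 7.15 and 6.58 CPM under vehicle and at 7.79 and 11.4 CPM under drug in wild type and was not called. In p53 KO cells it rose from 3.73 and 3.26 CPM to 10.96 and 11.9 CPM, a log2 change of 1.71 (SE 0.30, adjusted p = 0.00736). Under drug the p53 KO and wild-type libraries overlapped, and under vehicle the p53 KO libraries were lower. In Dux KO cells the called rise of 1.69 (SE 0.40, adjusted p = 0.0137) rested on 1 vehicle library at 0.815 CPM against 2.08 and 3.20 CPM under drug. The recovered vehicle library stood at 2.97 CPM, between the drug libraries. With it added the Dux KO change was 0.48 (adjusted p = 0.485), or 0.65 (adjusted p = 0.114) with the block, and with it in place of the deposited one it was -0.17 (adjusted p = 0.764).

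Lamb1 (chromosome 12, 31265234 to 31329644, plus strand) encodes the laminin beta 1 chain, part of the first laminin trimer of the embryonic basement membrane. Its levels were 47.6 and 47.0 CPM under vehicle and 79.2 and 83.1 CPM under drug in wild type. In p53 KO cells they were 27.6 and 36.2 CPM under vehicle and 44.7 and 80.9 CPM under drug, and in Dux KO cells 38.7 and, recovered, 37.5 CPM under vehicle and 88.2 and 88.7 CPM under drug. Treatments did not overlap within any genotype, and the p53 KO drug libraries differed most between lines. The log2 change was 0.78 (SE 0.25, adjusted p = 0.0253) in wild type, 0.98 (SE 0.25, adjusted p = 0.0281) in p53 KO and 1.19 (SE 0.31, adjusted p = 0.0221) in Dux KO.

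Sparc (chromosome 11, 55394500 to 55423183, minus strand) encodes a calcium-binding glycoprotein that binds collagen and is abundant in parietal endoderm. It was the most abundant of the 10, at 175 and 161 CPM under vehicle and 243 and 268 CPM under drug in wild type, a log2 change of 0.61 (SE 0.18, adjusted p = 0.0190). The p53 KO libraries went from 219.9 and 156 CPM to 339 and 267 CPM, a change of 0.69 (SE 0.18, adjusted p = 0.0305). In Dux KO cells the deposited vehicle library lay at 150.0 CPM and the recovered one at 240.5 CPM, on either side of the drug libraries at 212 and 209 CPM. The Dux KO change was 0.49 (SE 0.22, adjusted p = 0.141) without the recovered library and -0.19 (adjusted p = 0.548) with that library in place of the deposited one. With the replicate block it was 0.50, the change of line 1 alone, and 0.14 (adjusted p = 0.509) with the block and the recovered library. The p53 KO call was lost with the recovered library in the fit (adjusted p = 0.0757).

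Col4a1 encodes the alpha 1 chain of collagen IV, the network-forming collagen of basement membranes. Wild-type libraries lay at 31.6 and 29.0 CPM under vehicle and at 35.5 and 38.0 CPM under drug. In p53 KO cells line 2 stood apart under vehicle at 8.66 CPM, against 32.7 CPM in line 1, and both lines were near each other under drug at 40.9 and 35.5 CPM. The Dux KO libraries were at 23.9 and, recovered, 24.8 CPM under vehicle and at 28.9 and 37.4 CPM under drug. None of these drug responses was called without the block. With it the p53 KO response was 1.13 (adjusted p = 0.00726), and without p53 KO vehicle library 1 it was 2.14 (adjusted p = 0.00341), while the unblocked value was 0.89 (SE 0.46, adjusted p = 0.211). The block called 38% of all genes in the p53 KO response and 37.2% in the Dux KO response. Col4a1 lies at chromosome 8, 11198423 to 11312826, minus strand, and shares its start with Col4a2 on the other strand (up to 1888 counts) and its end with the antisense RNA Gm15418 (up to 644 counts, against 2056 for Col4a1).

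**Figure D2:**
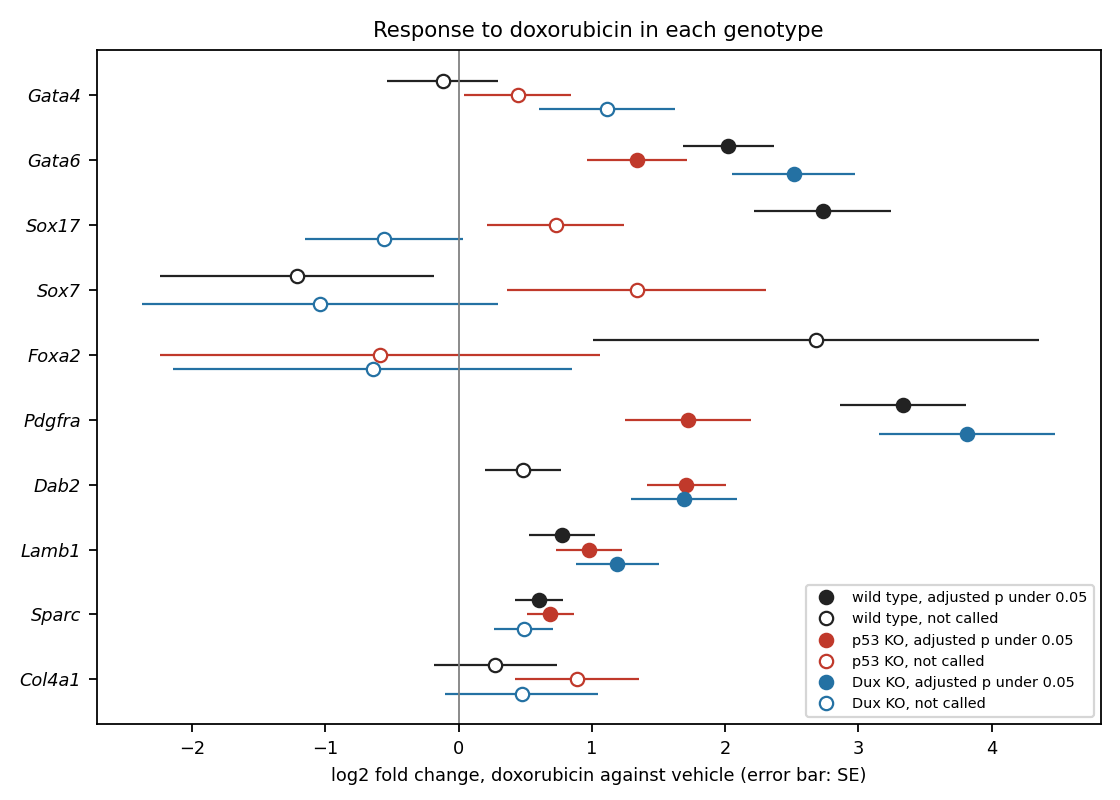
Change of each gene under doxorubicin in wild-type, p53 KO and Dux KO cells, as log2 fold change with its standard error, with filled symbols for adjusted p under 0.05. Gata6, Pdgfra and Lamb1 have filled symbols in all 3 genotypes, and the Sox17 symbol is filled for wild type.

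In p53 KO cells 5 of the 10 genes rose (Gata6, Pdgfra, Dab2, Lamb1, Sparc) and the other 5 were not called, where 17.4% of all tested genes were called and 9.31% rose. In Dux KO cells 4 rose (Gata6, Pdgfra, Dab2, Lamb1) and 6 were not called, where 26.5% of tested genes were called and 14.5% rose. The median log2 change over the 10 genes was 0.93 in p53 KO and 0.80 in Dux KO, against 0.18 and 0 over all genes tested. RLE scaling in place of TMM took the wild-type median of all genes from 0.13 to 0.23 and changed no call of the 10 genes in these 3 responses. The authors' deposited table gives wild-type log2 changes of 3.37 for Pdgfra, 2.78 for Sox17 and 2.06 for Gata6, and it also puts Col4a1 past 0.05 at 0.31 (adjusted p = 0.0478).

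Calls near the threshold were lost in fits that left out 1 library. All groups share 1 fit and its estimate of spread, with 5 residual degrees of freedom in full. Leaving out a library outside the 2 groups compared therefore also alters the adjusted p, and such a loss does not show that the call rests on that library. For wild type, Lamb1 was lost on leaving out vehicle a (adjusted p = 0.100), vehicle b (0.109), drug a (0.0730) or drug b (0.155), and Sparc on leaving out vehicle a (0.0634), vehicle b (0.112) or drug b (0.133). For p53 KO, each of Gata6, Pdgfra, Lamb1 and Sparc lost its call on leaving out any wild-type library or either Dux KO drug library, with adjusted p from 0.0510 to 0.0841 for Gata6, 0.0636 to 0.0762 for Pdgfra, 0.0527 to 0.0731 for Lamb1 and 0.0560 to 0.0612 for Sparc. Gata6 was also lost without p53 KO vehicle 2 (0.147), drug 1 (0.0535) or drug 2 (0.0965), and Pdgfra without vehicle 1 (0.108) or drug 2 (0.130). Lamb1 was lost without p53 KO vehicle 1 (0.107) or drug 2 (0.0774, where its log2 change was 0.49), and Sparc without vehicle 2 (0.111) or drug 1 (0.0918). For Dux KO, Dab2 was lost without drug 2 (0.0631), and Lamb1 without wild-type drug b (0.0504), Dux KO drug 1 (0.0675) or drug 2 (0.0776). Gata6, Sox17 and Pdgfra in wild type, Dab2 in p53 KO, and Gata6 and Pdgfra in Dux KO kept their calls in each fit that left out 1 library.

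Pdgfra and Lamb1 lie in the group that moved together in all 3 genotypes, and their promoters are printed as the 2 of that group with an entry in the promoter table. Sequences are the RefSeq windows of GRCm38.p6, from 250 bases before to 50 after each start, cut to the part outside any annotated exon, and given 5′ to 3′ on the plus strand. RefSeq windows matched 6 of the 10 genes, with 9 windows. Capitals mark a CCAAT box (CCAAT) or a GC box (GGGCGG, here on the minus strand) found by a letter search on both strands.
Pdgfra promoter, chr5:75152001-75152250, plus strand: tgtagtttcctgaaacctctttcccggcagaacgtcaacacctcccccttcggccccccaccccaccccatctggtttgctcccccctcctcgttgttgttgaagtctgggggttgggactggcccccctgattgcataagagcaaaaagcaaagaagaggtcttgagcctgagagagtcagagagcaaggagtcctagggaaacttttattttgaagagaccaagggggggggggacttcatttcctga
Lamb1 promoter, chr12:31265043-31265233, plus strand: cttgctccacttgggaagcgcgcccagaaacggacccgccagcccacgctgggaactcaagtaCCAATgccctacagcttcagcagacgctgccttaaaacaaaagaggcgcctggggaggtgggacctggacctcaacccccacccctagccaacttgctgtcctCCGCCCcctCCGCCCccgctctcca

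The Pdgfra stretch of 250 bases held none of the 6 kinds of motif searched, was 54.4% G or C and had 4 CpG. GENCODE starts the Pdgfra gene at 75152292, past the end of the printed stretch at 75152250, so the bases just before that start are not printed. The Lamb1 stretch of 191 bases held 1 CCAAT box and 2 GC boxes, was 63.9% G or C and had 10 CpG. Over 32851 promoter windows of 300 bases, 37.4% held a CCAAT box, 35.7% a GC box, 13.6% a TATA box (TATAAA), 29.8% a GATA site (spelled AGATAA and also TGATAA and also AGATAG and also TGATAG) and 34.1% a SOX site (spelled ACAATG and also ACAATA and also ACAAAG). A p53 half-site, named here without its letters, was in 8.36% of windows and, of the members' windows, in that of Sparc. That Sparc window, at 55420031 to 55420330 on chromosome 11, lies inside the Sparc gene as annotated by GENCODE and overlaps a Sparc exon, with 5 bases of it before the first exon. A GATA site was in 1 window of Foxa2 and 1 of Dab2. These are letter matches in short windows and not measured sites.

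Differences between the genotypes' responses were tested directly, as the knockout's response minus the wild-type response. For Dux KO, Sox17 was the 1 gene of 10 whose response differed, with a log2 difference of -3.29 (SE 0.78, adjusted p = 0.0459), where 5.25% of all tested genes were called. It was also called with the replicate block (-3.18, adjusted p = 0.0281), which called 20.6% of all genes. It was lost with the recovered vehicle library added (-2.88, adjusted p = 0.0736, with 4.63% of all genes called) or put in place of the deposited one (-2.22, adjusted p = 0.206), and called with that library added together with the block (-2.82, adjusted p = 0.0356). It was also lost on leaving out wild-type vehicle a (0.142) or b (0.140), wild-type drug a (0.0737) or b (0.178), or Dux KO drug 1 (0.123) or drug 2 (0.141). The sign was negative in all of these fits. In the block fit without the recovered library, the Dux KO response is that of line 1 alone.

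For p53 KO, 0 of the 10 genes passed this test in edgeR, where 20.2% of all tested genes did. At an unadjusted p under 0.05, 1 gene was more positive and 2 more negative than in wild type, and DESeq2 called 1, against 26.1% of all genes. With the replicate block, 3 of 10 were called against 37.7% of all genes. They were Pdgfra at -1.56 (adjusted p = 0.00597, unblocked -1.61 with adjusted p = 0.117), Dab2 at 1.23 (adjusted p = 0.0112, unblocked 1.23 with adjusted p = 0.0658) and Sox7 at 2.73 (adjusted p = 0.0487, unblocked 2.54 with adjusted p = 0.246). Pdgfra was also called by DESeq2 (-1.72, adjusted p = 0.0404), and in edgeR without p53 KO vehicle 1 (0.0279) or drug 2 (0.0397). Without p53 KO vehicle 2 the Pdgfra difference was -0.71 (adjusted p = 0.469), and in the other leave-outs it was between -1.73 and -1.21 and not called. The Sox17 difference was -2.00 (SE 0.73, adjusted p = 0.0857) and was called without p53 KO vehicle 2 (-2.47, adjusted p = 0.0422), and that of Col4a1 went from 0.61 (adjusted p = 0.566) to 1.86 (adjusted p = 0.00340) without p53 KO vehicle 1. The share of the 10 genes called with the block was no higher than that of all genes.

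Under vehicle, the p53 KO libraries were compared with wild type to see what the genotype alone changed. In edgeR 0 of the 10 genes passed, where 0.887% of all tested genes did, 3 were lower at an unadjusted p under 0.05, and DESeq2 called 1, against 4.82% of all genes. Gata6 was at a log2 of -1.70 (SE 0.37, adjusted p = 0.0811), called by DESeq2 (adjusted p = 0.00923) and with the block (-1.71, adjusted p = 0.00685). The block also called Dab2 (-0.97, adjusted p = 0.0218, unblocked adjusted p = 0.189) and Lamb1 (-0.58, adjusted p = 0.00564, unblocked adjusted p = 0.369), and called 12% of all genes. The vehicle libraries of these 3 genes did not overlap between the genotypes. Col4a1 was at -0.55 (adjusted p = 0.659), and at -1.81 (adjusted p = 0.0172) without p53 KO vehicle 1, which leaves the low line 2.

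In Dux KO under vehicle 1 of 10 genes was called, where 1% of all tested genes were. Dab2 was lower by a log2 of -3.07 (SE 0.42, adjusted p = 0.0293). Adding the recovered vehicle library gave -1.87 (adjusted p = 0.0970, with 1.49% of all genes called), and using it in place of the deposited library gave -1.21 (adjusted p = 0.128). With the block, which called 10.5% of all genes, Dab2 was at -2.76 (adjusted p = 0.00136), or -2.07 (adjusted p = 0.00343) with the recovered library too. The unblocked call was lost on leaving out wild-type vehicle a (0.209) or b (0.216), wild-type drug a (0.0750) or b (0.0682), or Dux KO drug 1 (0.0542) or 2 (0.0553). With the block Pdgfra was also called, at -1.44 (adjusted p = 0.0391, unblocked -1.55 with adjusted p = 0.232). DESeq2, which called 8.44% of all genes, called Gata6 there (-1.52, adjusted p = 0.0486), as did the block with the recovered library (-1.39, adjusted p = 0.0211), against -1.47 (adjusted p = 0.142) in edgeR. Without the recovered library, the block takes the vehicle level of line 2 from the line difference under drug. Both Dux KO vehicle libraries, the recovered one included, were below both wild-type vehicle libraries for Dab2, Gata6 and Pdgfra. The same held for Gata4, Sox7, Lamb1 and Col4a1, while Foxa2 was higher there. Of all these genes only Dab2 was called in the main test. With 2 libraries per group such separation can arise without a change, and its share over all genes was not counted. Sox7 had 8 counts and, recovered, 10 counts in Dux KO against 16 and 12 in wild type.

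Under drug, 3 of the 10 genes were lower in p53 KO than in wild type, where 43.7% of all tested genes were called and 22% were lower. Gata6 differed by -2.39 (SE 0.35, adjusted p = 0.000624), Pdgfra by -2.12 (SE 0.44, adjusted p = 0.00429) and Sox17 by -1.70 (SE 0.48, adjusted p = 0.0179). Their p53 KO drug libraries were all below their wild-type drug libraries. Sox17 was lost without wild-type drug b (0.146), p53 KO drug 1 (0.0630) or drug 2 (0.0545). With the block Gata4 was higher in p53 KO (1.05, adjusted p = 0.0154) and Lamb1 lower (-0.43, adjusted p = 0.00515), and 57.5% of all genes were called. Unblocked, Gata4 was at 1.05 (adjusted p = 0.0642) and Lamb1 at -0.37 (adjusted p = 0.248), and without p53 KO drug 2 Lamb1 was at -0.86 (adjusted p = 0.00426). Gata4 was called without p53 KO vehicle 1 (adjusted p = 0.0322) or vehicle 2 (0.0308). With RLE scaling the all-gene median of this comparison went from 0.02 to -0.09, in the p53 KO interaction from 0.05 to -0.07 and in Dux KO against wild type under drug from 0 to -0.10, and changed no call of the 10 genes.

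In Dux KO cells under drug 3 of the 10 genes were lower than in wild type, where 30.1% of all tested genes were called and 14.5% were lower. They were Sox17 (-2.85, SE 0.49, adjusted p = 0.00307), Dab2 (-1.86, SE 0.30, adjusted p = 0.00200) and Gata6 (-0.98, SE 0.32, adjusted p = 0.0473). Sox17 and Dab2 kept this call in each fit that left out 1 library. Gata6 lost it without wild-type vehicle a (0.0663) or b (0.0657), wild-type drug a (0.148) or b (0.208), or Dux KO drug 1 (0.263) or 2 (0.0692), and without the filter on low counts (0.0777). With the block 6 of 10 were called, where 50.1% of all genes were. The additions were Pdgfra (-1.07, adjusted p = 0.00132, unblocked adjusted p = 0.0862), Sparc (-0.28, adjusted p = 0.0322, unblocked adjusted p = 0.260) and Gata4 (0.83, adjusted p = 0.0482, unblocked 0.84 with adjusted p = 0.147). DESeq2, with 30.8% of all genes called, also called Pdgfra (-1.17, adjusted p = 0.0270), as did edgeR without p53 KO vehicle 1 (0.0297), vehicle 2 (0.0297), drug 1 (0.0411) or drug 2 (0.0415). The authors' deposited table gives -2.88 for Sox17, -1.88 for Dab2 and -1.09 for Pdgfra in this comparison. The drug responses and these comparisons share libraries, so they are not independent of each other.

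The order of levels was compared per kb of annotated exon, since counts alone grow with gene length. In wild-type vehicle libraries Sparc was highest at 42.5 to 46.2 CPM per kb, then Lamb1 at 4.74 to 4.80, Col4a1 at 3.89 to 4.24 and Dab2 at 0.896 to 0.974. The 3 matrix genes thus stood above the adaptor, the receptor and all 5 transcription factors. Gata4 (0.318 to 0.517) and Gata6 (0.253 to 0.346) overlapped, as did Sox7 (0.136 to 0.188) and Pdgfra (0.134 to 0.140), and Sox17 (0.0651 to 0.0784) and Foxa2 (0 to 0.0316) were lowest. Under drug in wild type Pdgfra moved to 1.26 to 1.51 CPM per kb, overlapping Dab2 at 1.06 to 1.56, which overlapped Gata6 at 1.22 to 1.22. Sox17 then lay at 0.364 to 0.599, overlapping Gata4 at 0.379 to 0.392. In p53 KO drug libraries Gata4 (0.731 to 0.871) stood above Gata6 (0.213 to 0.252) without overlap, the reverse of wild type under drug. Gata4 also stood above Gata6 without overlap in p53 KO vehicle libraries (0.392 to 0.787 against 0.0716 to 0.112). The same held in Dux KO vehicle libraries (0.248 to 0.318 against 0.107 to 0.122), while in Dux KO drug libraries the genes overlapped.

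**Figure D3:**
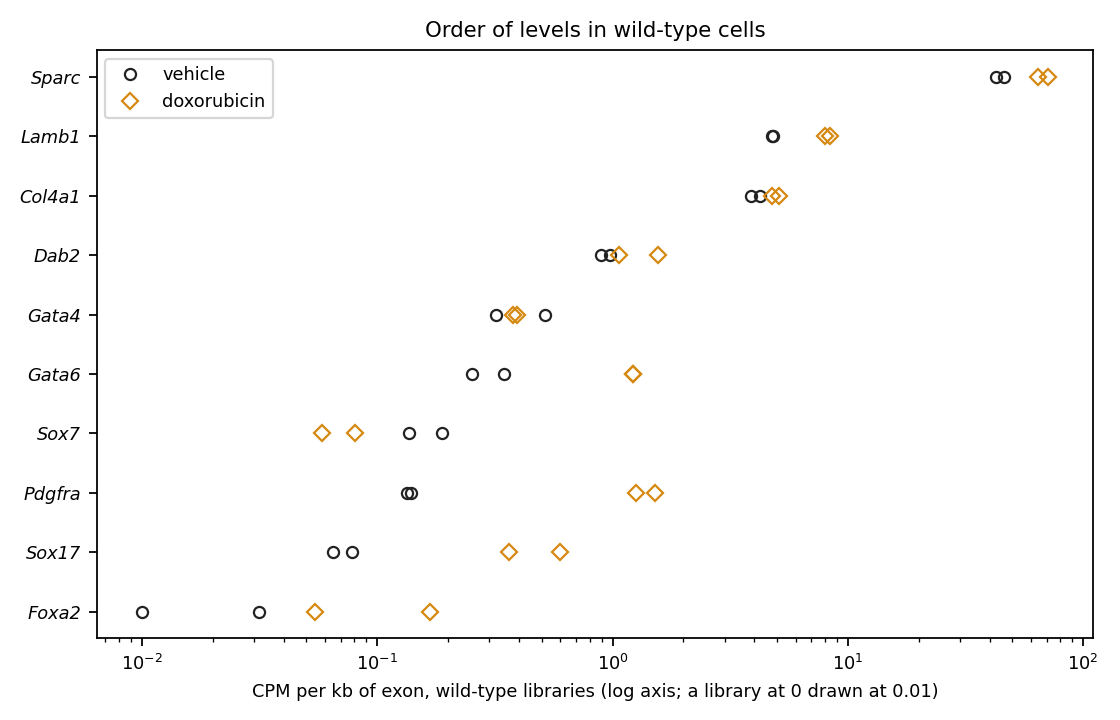
Levels of the 10 genes in the 4 wild-type libraries, as CPM per kb of exon on a log axis, ordered by the vehicle mean. Pdgfra moves from 0.134 and 0.140 under vehicle to 1.26 and 1.51 under drug, while Gata4 stays between 0.318 and 0.517.

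Other gene lists are counted here against the shares of all genes, of which 29% rose and 23.4% fell in the wild-type response, 9.31% and 8.09% in the p53 KO response and 14.5% and 11.9% in the Dux KO response. With the block 64.4%, 38% and 37.2% of all genes were called in these 3 responses. A list of 24 other genes of primitive, visceral and parietal endoderm was followed beside the 10. Of 23 tested, 13 rose and 1 fell in wild type, with a median log2 of 2.19, or 2.02 with genes at 0 set to a floor of 3 counts per library. In p53 KO 6 rose and 1 fell (median 1.43, or 1.31 with the floor), and in Dux KO 7 rose and 16 were not called (median 1.20, or 1.19). Apob, the apolipoprotein of visceral endoderm, stood at 0.466 and 0.449 CPM under vehicle and at 18.8 and 24.3 CPM under drug in wild type, a log2 change of 5.55 (SE 0.39). Stra6, a receptor for retinol-binding protein, rose in all 3 genotypes, by 5.24 in wild type, 4.0 in p53 KO and 5.87 in Dux KO. Rspo3, a secreted Wnt activator, was at 0.0777 and 0 CPM under vehicle and at 1.61 and 1.60 CPM under drug in wild type. Afp was at 0 in both wild-type vehicle libraries and at 1.67 and 1.66 CPM under drug. Plat, a secreted protease of parietal endoderm, rose by 2.44 in p53 KO, a call lost without vehicle 2 (2.00) or drug 1 (1.59). In Dux KO it rose by 4.56 from 1 vehicle library at 0.155 CPM, but the recovered library stood at 1.23 CPM, and with it in place of the deposited one the change was 1.60 and not called. The p53 KO interaction called 5 of 23 (1 more positive, 4 more negative), led by Apob (-3.80), Snai1 (-3.58) and Hnf4a (-3.24). With the block 1 was more positive and 9 more negative. Of all genes 20.2% were called in this interaction, and 37.7% with the block. The Dux KO interaction called Snai1 (-4.08), an epithelial-mesenchymal transition factor, where 5.25% of all genes were called. Snai1 stood at 26.2 and 32.8 CPM in wild-type drug libraries and at 2.30 and 2.11 CPM in Dux KO drug libraries. In Dux KO the block called 2 more positive and 4 more negative, where it called 20.6% of all genes.

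Under drug, 11 of the 23 were lower, 2 higher and 10 not called in p53 KO against wild type (median -1.66), where 22% of all genes were lower and 21.7% higher. In Dux KO 7 were lower and 16 not called (median -0.87), where 14.5% of all genes were lower and 15.6% higher. With the block 11 were lower and 2 higher, where 50.1% of all genes were called. Hnf4a, the nuclear receptor of visceral endoderm, was at 45.5 and 60.4 CPM in the wild-type drug libraries, 3.95 and 2.03 CPM in p53 KO and 5.62 and 5.24 CPM in Dux KO. Lrp2, an endocytic receptor of visceral endoderm, differed by -3.01 (SE 0.32) between Dux KO and wild type under drug.

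Another 22 genes of the basement membrane moved in both directions. In wild type 12 rose and 5 fell (median 1.22), where 29% of all genes rose and 23.4% fell. In p53 KO 8 rose and 1 fell (median 1.40), where 9.31% and 8.09% did, and with the block 11 rose and 3 fell, where 38% were called. In Dux KO 7 rose and 3 fell (median 0.86), where 14.5% and 11.9% did. The largest rises in wild type were in Col15a1, which forms a collagen of the membrane's outer side (5.46, SE 0.58), Npnt, the integrin ligand nephronectin (4.39, SE 0.45), Lamb3 (4.20, SE 0.46) and Lamc3 (3.65, SE 0.36), both laminin chains. Col15a1 and Npnt rose in all 3 genotypes, by 2.22 and 2.35 in p53 KO. The p53 KO call of Col15a1 was lost without any 1 of the wild-type or p53 KO libraries and with RLE scaling. In Dux KO Col15a1 stood at 0.0388 CPM, recovered 0.110 CPM, under vehicle and at 3.32 and 8.23 CPM under drug, and Npnt rose by 5.40. The laminin chains that pair with Lamb1 in the embryonic trimer, Lama1 and Lamc1, fell in wild-type cells, where Lamb1 rose. They and the other matrix genes named from here on were chosen after their values were seen. Lama1 stood at 106 and 106 CPM under vehicle and 28.1 and 33.7 CPM under drug, and Lamc1 at 453 and 432 CPM under vehicle and 217 and 235 CPM under drug. The nidogens, which link laminin to collagen IV, fell too, Nid1 going from 268 and 276 CPM to 79.0 and 70.5 CPM and Nid2 from 329 and 335 CPM to 191 and 188 CPM. The p53 KO interaction called 12 of 22, 6 in each direction, where 20.2% of all genes were called. The Dux KO interaction called Lama2 (-3.12), or 5 more positive and 3 more negative with the block, where 5.25% and 20.6% of all genes were called. Against wild type under drug 6 were higher and 8 lower in p53 KO, where 21.7% and 22% of all genes were. In Dux KO under drug 6 were higher and 4 lower, where 15.6% and 14.5% of all genes were. With the block these were 7 and 9, where 50.1% of all genes were called. Under vehicle 22 of 22 were not called in p53 KO, and with the block 2 were higher and 10 lower. Of all genes 0.887% were called under vehicle, and 12% with the block. There p53 KO line 2 was low for several matrix genes, with Lama5 at 60.5 CPM against 221 CPM in line 1 and Col4a2 at 5.79 CPM against 20.8 CPM.

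**Figure D4:**
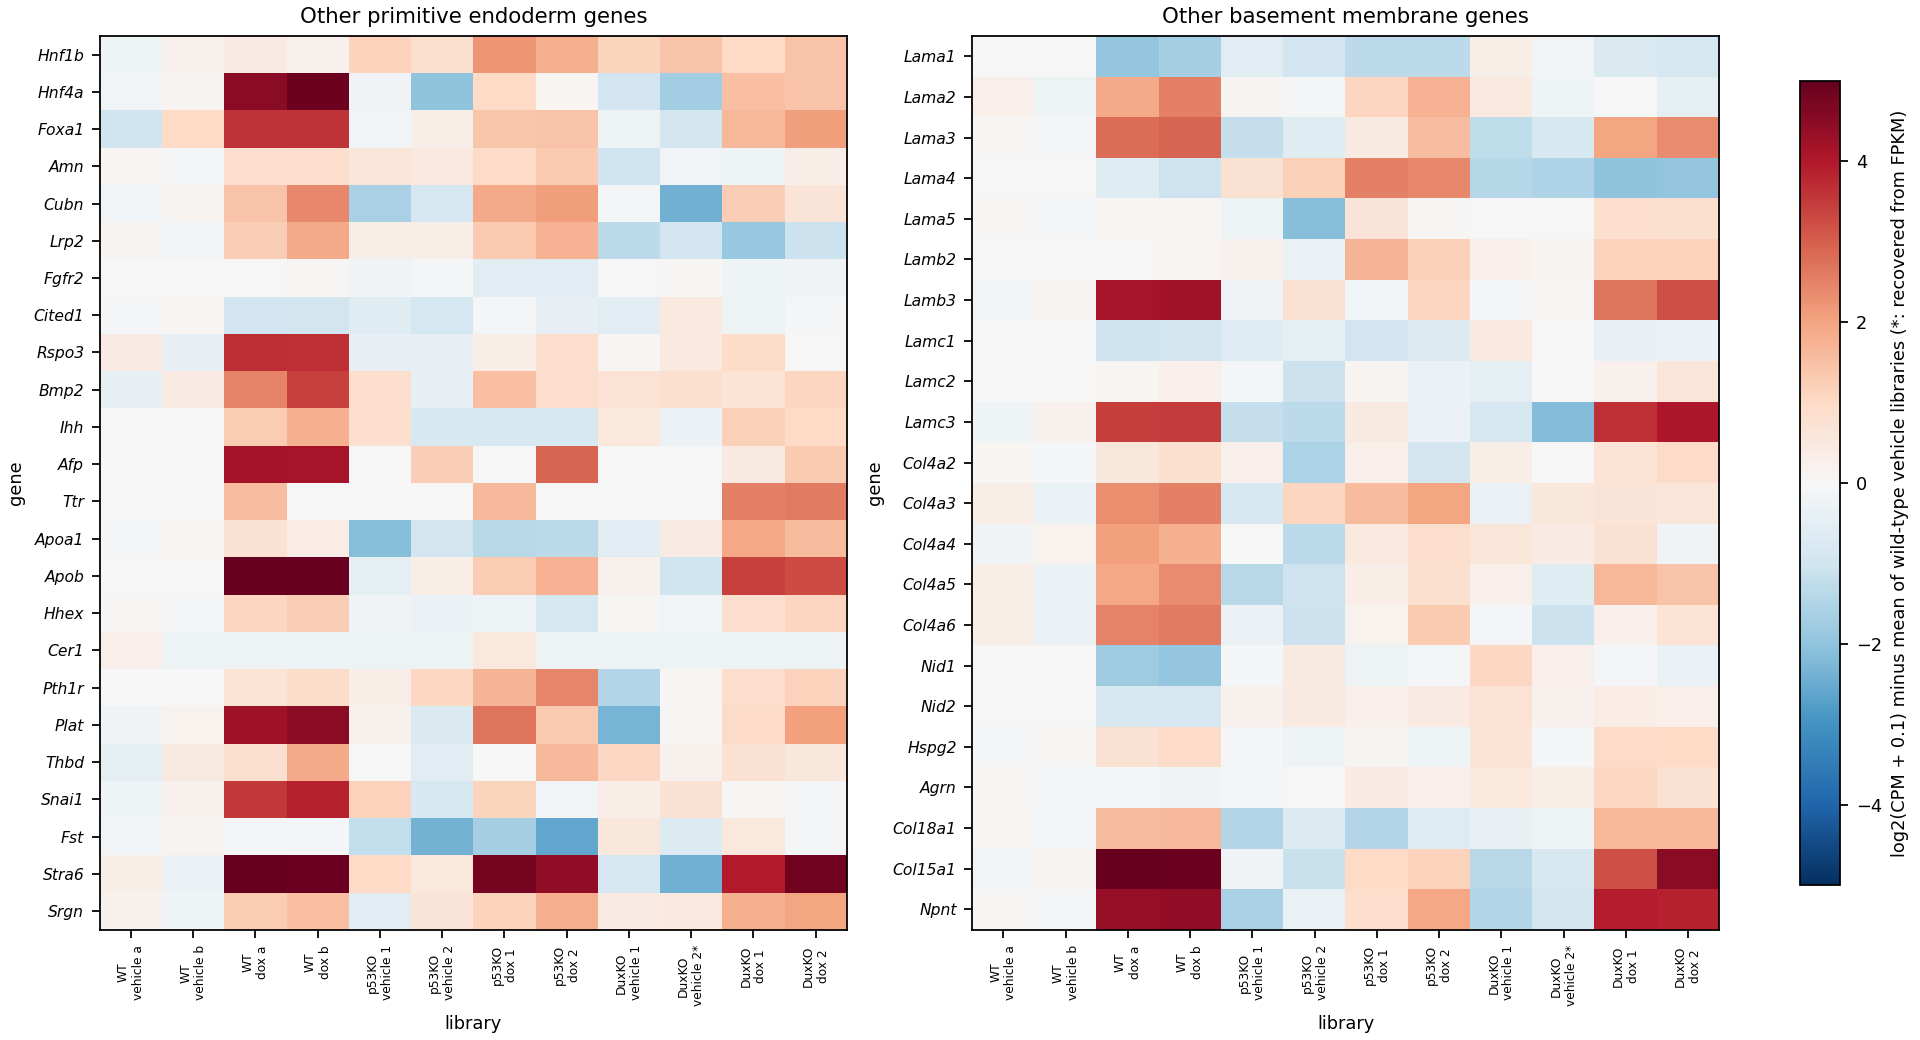
Levels of 24 other primitive endoderm genes and 22 other basement membrane genes in each of the 12 libraries, as log2(CPM + 0.1) minus the mean of the 2 wild-type vehicle libraries, with red for higher and blue for lower and the recovered library starred. Stra6, Col15a1 and Npnt are red in the drug libraries of all genotypes, and Lama1 and Nid1 are blue in the wild-type drug libraries.

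The opposing side of the cell fate decision and markers of other lineages moved in the same libraries, and their part in these results was not tested. Of 9 epiblast and naive pluripotency genes, 8 fell in wild type (median -2.51), 6 in p53 KO (median -0.62) and 6 in Dux KO (median -1.33). Of all genes 23.4%, 8.09% and 11.9% fell in these 3 responses. Their summed level was 4147 to 4307 CPM under vehicle and 725 to 819 CPM under drug in wild type, 1882 to 2262 CPM under drug in p53 KO and 1621 to 1692 CPM under drug in Dux KO, where the vehicle libraries of the knockouts lay between 3676 and 4204 CPM. Nanog fell by 2.75 on the log2 scale in wild type. In the next 3 lists the share of all genes that rose was 29% in wild type, 9.31% in p53 KO and 14.5% in Dux KO. Of 12 trophectoderm genes 8 rose in wild type, 1 in p53 KO and 3 in Dux KO, and their summed level in wild type went from 162 to 169 CPM to 495 to 547 CPM. Of 12 genes of primitive streak, mesoderm and definitive endoderm, a lineage that shares Sox17 and Foxa2, 6 rose in wild type, 2 in p53 KO and 5 in Dux KO, with summed levels of 26.1 to 27.1 CPM under vehicle and 82.9 to 90.1 CPM under drug in wild type. Of 11 tested fibroblast and feeder markers 6 rose in wild type, 1 in p53 KO and 3 in Dux KO, while their summed level in wild type went from 846 to 855 CPM to 631 to 716 CPM. Dcn reached at most 0.199 CPM and Lum at most 0.0714 CPM in any library. In bulk RNA, a change in the number of cells of a type and a change in RNA per cell cannot be told apart.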

How the data were processed

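Poly(A) RNA of 12 libraries in 6 groups was sequenced. Per the submitters' processing notes the authors used TopHat2, DESeq and DESeq2 with mm10, with no versions given; strand setting and annotation are not given in the sources used here. The authors deposited raw counts per gene, FPKM values, which the values show to be per gene span with introns (98.4% of 13323 genes within 1%), and a table of their own log2 fold changes with adjusted p-values. Of the deposited columns, 6 averages were not used. Counts of Dux KO vehicle library 2 were recovered from its FPKM (99.9% of 3596 low values within 0.15 of a whole read) and used as an alternative, because its count column repeats another library.

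The tests used edgeR 4.0.16 under R 4.3.3 on the counts of 11 libraries (TMM scaling, filterByExpr with a minimum count of 10, quasi-likelihood test, 1 mean per group, 5 residual degrees of freedom, Benjamini-Hochberg over 28643 genes, 0.05), and the procedure was tested on simulated data. Total counts from 23270358 to 56795858 set the precision, and floors of 3 counts cover counting error only. The same numbered line served vehicle and drug in each knockout, so line numbers pair those libraries (correlation of deviations 0.68 in p53 KO and 0.25 in Dux KO over 19965 genes). Wild-type columns carry no number. Alternatives were a replicate block for line (3 residual degrees of freedom), RLE factors, DESeq2 1.42.0, no filter, limma 3.58.1 on log2(FPKM + 1) or log2(FPKM + 0.1), the recovered library and leaving out each library. Genome positions are from GENCODE M21 on GRCm38, in which 54409 of 54532 gene IDs were found.

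The 10 genes and the gene lists were chosen with earlier results of these data known. Named genes were the 10 members, and from each list counts and at most 4 called genes with the largest change per comparison, beside label checks.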

Additional observations from a re-analysis of the deposited data

Results flagged for a closer look

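These genes came out because the test of the difference itself, the knockout's drug response minus the wild-type response in edgeR's quasi-likelihood test, passed an adjusted p of 0.05. All values are such log2 differences. For Dux KO they were Sox17 at -3.29, Snai1 at -4.08 and Lama2 at -3.12, with adjusted p of 0.0459, 0.0382 and 0.0277. Each of these 3 calls was lost on leaving out any 1 of several libraries, among them either wild-type vehicle library, wild-type drug b and either Dux KO drug library, and the values for Lama2 then lay between -3.43 and -2.69.

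For p53 KO the other primitive endoderm genes were Apob at -3.80, Snai1 at -3.58, Hnf4a at -3.24, Hhex at -1.40 and Cited1 at 1.51. The laminin chains split, with Lamb3 at -3.97 and Lamc3 at -1.92 on one side and Lama4 at 2.35, Lamb2 at 1.47, Lama1 at 1.24 and Lamc1 at 0.70 on the other. The nidogens Nid1 and Nid2 were at 1.45 and 0.80. Col15a1 was at -3.23, Npnt at -2.04, Col18a1 at -1.57 and Hspg2, the proteoglycan perlecan, at -0.73. Of these 17 calls, 6 held in every fit that left out 1 library (Apob, Lama1, Lama4, Lamb2, Lamb3 and Nid1). The other 11 were each lost without wild-type vehicle a and without vehicle b, and some without further libraries. Over the leave-outs the highest adjusted p was 0.350 for Col15a1, 0.135 for Hspg2, 0.133 for Lamc3, 0.121 for Npnt, 0.103 for Col18a1, 0.101 for Lamc1 and 0.100 for Cited1. For Snai1, Hhex, Hnf4a and Nid2 it was 0.0841, 0.0832, 0.0772 and 0.0658. Without p53 KO vehicle 1 Hnf4a was at -1.89, Col15a1 at -2.20 (both not called) and Snai1 at -2.22 (called), and without vehicle 2 Npnt was at -1.22 (not called). These comparisons share the wild-type libraries.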

How the results depend on the processing

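The Dux KO vehicle group has 1 library in the tests and the other groups have 2. With the recovered library in place of the deposited one, chosen after seeing the data, the Dux KO responses of Dab2 (-0.17) and Sparc (-0.19) reversed in sign and neither was called, and the Dux KO interaction and vehicle comparison had 0 of the members called, as with 12 libraries (0 and 0); in place, 3.39% and 3.09% of all genes were called there. With the replicate block the number of members called was 3 for the p53 KO interaction, 3 for p53 KO and 2 for Dux KO under vehicle, and 5 and 6 against wild type under drug; with the recovered library too it was 3, 2, 3 and 5 for the first 4 of these, against 32.3%, 6.76%, 11.1% and 54.8% of all genes. DESeq2 called 1 for the p53 KO interaction and 1 and 2 under vehicle. Under limma with the FPKM filter, which left 2 members to test, both pseudocounts called 1, 2 and 1 in the wild-type, p53 KO and Dux KO responses (53.7%, 15.3% and 33.9% of all genes with a pseudocount of 1, and 54.5%, 15.6% and 33.2% with 0.1) and 0 in the Dux KO interaction, Dux KO vehicle and the p53 KO and Dux KO drug comparisons (12.3%, 2.66%, 54.9% and 36.9% of all genes, or 11.7%, 1.96%, 54.4% and 35.8%). Without the filter limma called 2 in the p53 KO response, 4 in its interaction and 0 in Dux KO vehicle, against 8.14%, 19.3% and 0.755% of all genes. Leaving out 1 library gave 3 to 5, 1 to 5 and 2 to 4 called in the 3 responses, 0 to 2 and 0 to 1 in the interactions, 0 to 1 and 0 to 1 under vehicle, and 2 to 4 and 2 to 4 under drug. Without Dux KO vehicle 1 comparisons with that group had no value. Of member values called in the main analysis, 340 alternatives were unchanged in call, 81 lost it and 1 reversed in sign. Values not called there were counted only where the replicate block called them, so their gains include the block's own calls. Of their alternatives 244 stayed uncalled, 45 gained a call and 1 reversed in sign. Member values called in neither fit were not counted. Where no value above shows it, the cause was not tested. Foxa2 had at most 12 counts and Sox7 at most 42 in any library.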

Other observations

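Cell receptors for the basement membrane and the enzymes that fold and crosslink collagen were also measured. The share of all genes that rose was 29% in wild type, 9.31% in p53 KO and 14.5% in Dux KO, 23.4%, 8.09% and 11.9% fell, and with the block 64.4%, 38% and 37.2% were called in either direction. Of 10 receptors 4 rose and 1 fell in wild type (6 and 2 with the block), 1 rose in p53 KO (4 rose and 2 fell with the block) and 3 rose in Dux KO (6 and 1 with the block). Itga2, an integrin subunit that binds collagen and laminin, stood at 0 and 0.224 CPM under vehicle and at 12.9 and 13.7 CPM under drug in wild type, and Ddr1, a collagen receptor kinase, rose in all 3 genotypes, by 3.25 in wild type, 0.99 in p53 KO and 3.81 in Dux KO. Itga7, a laminin-binding integrin subunit, fell by 2.87 in wild type. Of 11 folding and crosslinking genes 4 rose and 2 fell in wild type, 1 rose and 1 fell in p53 KO (4 and 3 with the block), and 4 rose in Dux KO. Serpinh1, the collagen chaperone HSP47, rose by 1.78 in wild type and 2.36 in Dux KO. Of 12 other genes of the member families, 3 rose and 1 fell in wild type, 3 and 1 in p53 KO, and 2 and 1 in Dux KO. Of 8 genes of the FGF signal upstream of primitive endoderm, 1 rose and 3 fell in wild type, 0 and 3 in p53 KO, and 1 and 3 in Dux KO.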
